A study of Mus musculus with 8 samples.

Results

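The cell surface proteins by which skin stem cell compartments are told apart and sorted are encoded here by 8 genes, Cd34, Lgr5, Lgr6, Lrig1, Ly6a, Cd200, Plet1 and Cd44. They were chosen by symbol alone, 8 of the 24755 gene symbols measured in either cell type, and their levels were followed through all 8 libraries. Bulk RNA-seq was performed on dorsal skin cells of mice in telogen, the resting phase of the hair cycle, sorted by flow cytometry into hair follicle stem cells (HFSCs) and epidermal progenitor cells (EpdSCs). Of the 8 genes, 7 were measured in HFSCs, 7 in EpdSCs and 6 in both. Ly6a was not analysed here in HFSCs, and Cd34 was not analysed here in EpdSCs.

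HFSCs were gated as CD34+CD49f+Sca-1-, a gate that takes in bulge and hair germ cells, and EpdSCs as CD34-CD49f+Sca-1+. Each cell type had 2 libraries from WT C57BL/6J mice and 2 from Msx2-KO mice, which are homozygous in the germ line for an allele with a neomycin cassette upstream of the second Msx2 exon, so that every cell of the skin carries it. By the labels the WT mice of the HFSC libraries were 2 months old, and the mice of the other 6 libraries 6 months old, so age and genotype cannot be told apart in HFSCs. Library names also split by genotype. In HFSCs they began with YC in WT and with Ch in Msx2-KO, and in EpdSCs each genotype had its own run of numbers. What these names stand for is not given, so any difference in handling that follows them cannot be told apart from genotype in either cell type. The WT mice were described as matched by hair cycle. The study describes replicates of its in vivo experiments as individual mice in general, while the labels tie no library to an animal, so every p-value measures only the spread between these libraries. Cd34 and Ly6a encode CD34 and Sca-1, the proteins of the gates, and their levels are bound to the sorting.

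In resting skin, CD34 marks the bulge, the lasting stem cell niche of the follicle, and LGR5 marks the lower bulge and the hair germ below it. LGR6, LRIG1 and PLET1 mark the isthmus and junctional zone above the bulge, between the bulge, the sebaceous gland and the epidermis, while Sca-1 marks basal epidermis and infundibulum. CD44 is found more broadly on skin epithelium. LGR5 and LGR6 bind R-spondins and amplify Wnt signals, LRIG1 restrains receptors of the EGF family, CD44 binds hyaluronan and CD200 dampens myeloid cells through its receptor.

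The HFSC libraries held 3132974 to 11016659 estimated counts, of which mitochondrial ribosomal RNA took 8.94% and 36.3% in WT, and 49.4% and 53.2% in those labelled Msx2-KO. Genes above 0 numbered 22867 and 20229 in WT against 11749 and 14616, and the 2 latter libraries were correlated at 0.581 on log2 values against 0.929 for the WT libraries. In EpdSCs, Msx2-KO replicate 1 stood apart, with 12950 genes above 0 against 15286 to 16021. The markers' fold changes are given with and without it, as are those of the listed genes that were called. Mitochondrial ribosomal RNA took 23.5% and 16.4% of the normalized signal in WT EpdSCs, and 0.073% and 6.18% in those labelled Msx2-KO. Msx2 checked the labels and did not separate the groups. Its estimated counts were 53 and 7 in WT HFSCs and 40 and 18 in HFSCs labelled Msx2-KO, and its normalized signal was 58.5 and 85.4 in WT EpdSCs and 150 and 22.2 in EpdSCs labelled Msx2-KO. Counts per gene do not separate the exons around the cassette, so libraries are named by their labels, on which each direction between genotypes rests, and are called KO-labelled below.

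In HFSCs, Cd34 stood lower in the KO-labelled libraries, at 0.346 of its WT mean, and the 2 genotypes did not overlap. Lgr5 was also lower, Lgr6, Lrig1 and Cd200 were higher, and Plet1 and Cd44 overlapped between the genotypes. None of the 7 genes was called in edgeR's quasi-likelihood test, in which 0 of 14422 genes were called in either direction, 0% higher and 0% lower. A call required a Benjamini-Hochberg adjusted p under 0.05 over all genes tested and an absolute fold change over 2. An unadjusted p under 0.05 was reached by 2614 genes, among them 1 of the 7, Cd34. DESeq2 called 690 genes, with 2.5% of all genes called lower, and limma-trend called 1407, with 8.66% called lower, and in both the 1 gene of the set that was called was Cd34. Groups that did not overlap were found for 17.5% of all genes in the higher direction and 33.5% in the lower, against 3 and 2 of the 7 markers. With 2 libraries against 2, the smallest two-sided p of an exact permutation test of 1 gene is 0.333.

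Cd34 lies on chromosome 1 from 194938819 to 194961279 of GRCm38, on the plus strand, and encodes a sialomucin of stem cells and endothelium. Its normalized counts were 2731 and 2427 in WT HFSCs and 986 and 799 in KO-labelled HFSCs. Both KO-labelled libraries lay far below both WT libraries, although all 4 were sorted for the CD34 protein. On the log2 scale the difference was -1.53 (SE 0.25, unadjusted p = 0.00314, adjusted p = 0.143 in the edgeR quasi-likelihood test), from 2579 ± 215 (SD, n = 2) to 893 ± 132 (SD, n = 2). It was -1.50 with an adjusted p of 7.6e-04 in DESeq2 and -1.53 with an adjusted p of 0.0327 in limma-trend, and over all settings other than left-out libraries the adjusted p ranged from 7.6e-04 to 0.212. In bulk libraries, fewer cells expressing a gene and less of its RNA per cell cannot be told apart.

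The gate's own CD34 was thus set beside markers of endothelium, the other main source of Cd34 in skin. Of 10 endothelial genes, 9 were measured, and their summed normalized counts were 179 and 52.4 in WT HFSCs and 33.9 and 22.4 in KO-labelled ones. Pecam1 had 25.2 and 21.9 in WT and 0 and 20.1 in KO-labelled libraries. Kdr had 16.3 and 7.19 in WT and 33.9 and 0 in KO-labelled libraries, so it made up the whole sum of KO-labelled replicate 1. Tek, Egfl7, Esam, Vwf and Flt1 were at 0 in both KO-labelled libraries. These genes were low in WT too, and fewer genes of any kind were above 0 in the KO-labelled libraries, 11749 and 14616 against 22867 and 20229. The part of endothelial cells in the Cd34 level was not tested. The antisense gene Gm16897 overlaps exons of Cd34, and the use of strand in counting is not given in the sources used here.

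Lgr5, the R-spondin receptor of the lower bulge and hair germ, lies on chromosome 10 from 115450311 to 115587780. It had normalized counts of 625 and 1090 in WT HFSCs and 482 and 607 in KO-labelled HFSCs. The highest KO-labelled library lay only just under the lowest WT library. The fitted log2 difference was -0.65 (SE 0.37, adjusted p = 0.501 from edgeR's test), and it was -0.29 without WT replicate 2 and -1.02 without WT replicate 1.

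Lgr6, its paralog of the isthmus, lies on chromosome 1 from 134983301 to 135105276. It had normalized counts of 743 and 761 in WT HFSCs and 1063 and 1162 in KO-labelled HFSCs. These 2 pairs were each close and well apart from one another, with a log2 fold change of 0.57 (SE 0.21, adjusted p = 0.286 from edgeR's test). The direction was higher by TMM factors but turned to -0.29 with scaling by library totals, a setting that moved the median of all genes by -0.86 on the log2 scale.

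Lrig1, on chromosome 6 from 94604529 to 94700158, encodes a leucine-rich repeat protein that marks the junctional zone. Its normalized counts were 384 and 336 in WT HFSCs and 457 and 1066 in KO-labelled HFSCs. Both KO-labelled libraries were above both WT libraries, but replicate 2 was far above replicate 1. The log2 fold change of 1.08 (SE 0.48, adjusted p = 0.375 from edgeR's test) was 0.34 without KO-labelled replicate 2 and 1.54 without KO-labelled replicate 1. By library totals it was 0.14 (adjusted p = 0.95 from edgeR's test). Exons of Slc25a26, on the opposite strand, overlap Lrig1.

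Cd200, on chromosome 16 from 45382135 to 45409053, encodes an immunoglobulin-family ligand. It had normalized counts of 356 and 293 in WT HFSCs and 435 and 667 in KO-labelled HFSCs. The groups did not overlap, and the gap between them was smaller than the gap between the 2 KO-labelled libraries. Its log2 fold change was 0.76 by TMM factors (SE 0.32, adjusted p = 0.352 from edgeR's test) and -0.16 by library totals.

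Cd44, on chromosome 2 from 102811141 to 102901665, encodes the hyaluronan receptor. It had 911 and 1059 normalized counts in WT HFSCs and 910 and 1119 in KO-labelled HFSCs. The groups overlapped, and the log2 fold change was 0.04 by TMM factors (SE 0.24, adjusted p = 0.974 from edgeR's test) and -0.79 by library totals. Plet1, on chromosome 9 from 50494525 to 50505482, encodes a membrane-anchored glycoprotein of the isthmus and was the least abundant of the set. Its normalized counts were 53.4 and 36.0 in WT HFSCs and 95.7 and 16.5 in KO-labelled HFSCs, so the latter libraries enclosed the WT libraries. Its log2 fold change was 0.33 (SE 1.20, adjusted p = 0.955 from edgeR's test) by TMM factors, -0.50 by library totals and -1.47 without KO-labelled replicate 1. The antisense gene Plet1os overlaps exons of Plet1.

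**Figure D1:**
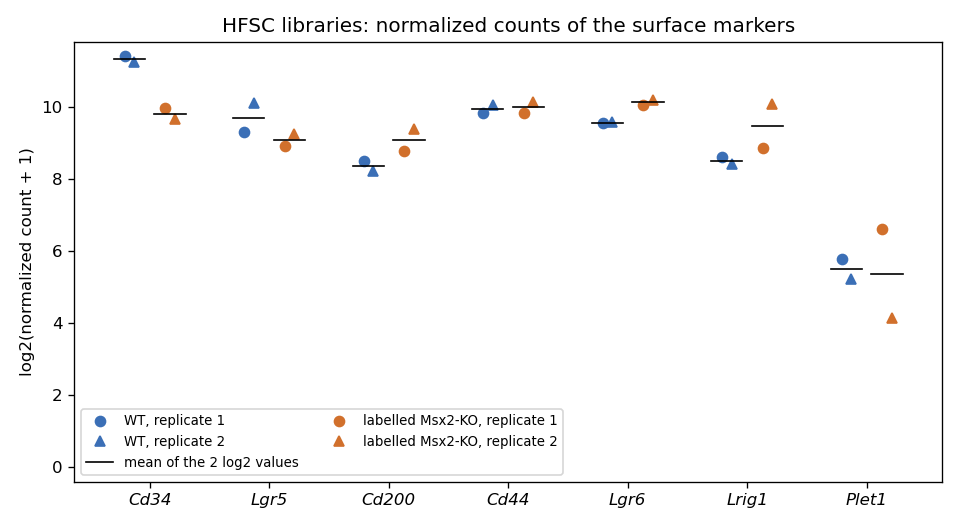
Log2 of the normalized count plus 1 (y axis) of the 7 surface markers measured in HFSCs, with 1 point per library and a black line at the mean of the 2 log2 values of a group. Cd34 shows the widest gap between WT and the KO-labelled libraries, 2731 and 2427 against 986 and 799 normalized counts, while the groups overlap for Cd44 and Plet1.

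Per kilobase of exon, which allows levels of different genes to be compared, Cd34 led the set in WT HFSCs with 375 and 333 normalized counts per kilobase. Cd44 followed with 134 and 156 per kilobase, then Lgr6 with 108 and 111. Below these, Cd200, Lgr5 and Lrig1 formed a run in which neighbours overlapped between libraries, from 107 down to 60.2 normalized counts per kilobase, and Plet1 came last with 27.4 and 18.5. In the KO-labelled libraries, Cd34 stood behind 4 others, with 135 and 110 normalized counts per kilobase. These were Cd200, Lgr6, Cd44 and Lrig1, and the neighbours among these first 5 overlapped between libraries. Lgr5 followed with 46.9 and 59.1 per kilobase, and Plet1 was again last, with 49.2 and 8.49, overlapping Lgr5.

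The genes whose profile over the 4 HFSC libraries lay closest to that of Cd34, among 5494 genes with a mean of at least 100, were Itpkc, Nbl1 and Aqp3. Likeness was the root mean square distance between centred log2 profiles, which was 0.05, 0.06 and 0.07. Aqp3, which encodes a water and glycerol channel of keratinocytes, had 2325 and 1964 normalized counts in WT HFSCs and 896 and 723 in KO-labelled ones. With 4 libraries such a distance describes a pattern of 4 values and no more.

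Markers of the compartments around the bulge were listed to set beside these values. Of 12 bulge genes, 8 were lower without overlap and 1 was higher, against 33.5% and 17.5% of all genes tested. None was called by edgeR, and the median log2 fold change was -0.58 against -0.14 over all genes tested. Their summed normalized counts were 44423 and 42761 in WT and 23658 and 25467 in KO-labelled libraries. Krt15, the bulge keratin, made up most of that sum and had 26150 and 24736 normalized counts in WT and 12337 and 15393 in KO-labelled libraries (log2 fold change -0.88, adjusted p = 0.417 from edgeR's test). Of the other most abundant bulge genes, the transcription factor genes Nfib, Sox9 and Nfatc1 had log2 fold changes of -0.96, -0.60 and -0.43. The hair germ list behaved otherwise, with sums of 990 and 1057 in WT and 1035 in KO-labelled replicate 1, and a lower sum in KO-labelled replicate 2. None of its 5 genes was called, and Cdh3, which encodes P-cadherin, was the most abundant with a log2 fold change of -0.18.

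The lists of the upper follicle, the sebaceous gland and the suprabasal epidermis were higher in the HFSC KO-labelled libraries, again with 0 calls by edgeR. All 6 upper follicle genes were higher without overlap, against 17.5% of all genes tested. Their sum was 849 and 1410 normalized counts in WT and 8263 and 6771 in KO-labelled libraries. Krt79, a keratin of the upper follicle duct, had 89.1 and 30.6 against 3248 and 2956 (log2 fold change 5.65, adjusted p = 0.143 from edgeR's test). It was called in DESeq2 (adjusted p = 3.2e-23) and in limma-trend (adjusted p = 0.0327). All 5 sebaceous genes measured were higher without overlap, with sums of 138 and 154 against 6835 and 4996 normalized counts. Scd1, the stearoyl-CoA desaturase of sebocytes, went from 98.0 and 110 to 5430 and 4227 (log2 fold change 5.54, adjusted p = 0.143 from edgeR's test), and Cidea was at 0 in both WT libraries.

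The basal epidermis list was lower, with sums of 102291 and 102408 against 46705 and 46786 normalized counts, and 4 of its 7 genes were lower without overlap and 1 was higher. Over all genes tested, 33.5% were lower and 17.5% higher without overlap. Of 8 suprabasal genes tested, 7 were higher without overlap, and the sum was 1081 and 1207 normalized counts in WT and 4591 and 17784 in KO-labelled libraries. Krt10, a keratin of differentiating epidermis, had 194 and 104 in WT and 2245 and 9043 in KO-labelled libraries, and like Scd1 was called in DESeq2 and in limma-trend. The suprabasal sum was highest in KO-labelled replicate 2, as were the counts of Lgr6, Lrig1, Cd200 and Cd44. Among these, Cd44 overlapped between genotypes, and Lgr6 was at 1063 and 1162 in KO-labelled replicates 1 and 2. The upper follicle and sebaceous sums were highest in replicate 1. In the same libraries Lgr6, Lrig1 and Cd200 were higher and Cd34 lower, and the part of these other compartments in the markers' levels was not tested. Markers of fibroblasts, immune cells and melanocytes stayed low, at most 370, 112 and 418 summed normalized counts in any HFSC library. Fibroblast sums were 292 and 370 in WT and 170 and 79.1 in KO-labelled libraries. The immune list summed to 77.4 and 34.5 against 112 and 57.9. Cd74 made up nearly all of the KO-labelled sums, with 26.0 and 8.99 in WT and 112 and 57.9 in KO-labelled libraries. Ptprc, H2-Aa and H2-Ab1 were at 0 in both KO-labelled libraries. The melanocyte list summed to 104 and 183 against 418 and 102.

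In EpdSCs, 5 of the 7 markers measured had both KO-labelled libraries above both WT libraries, Ly6a, Cd44, Lgr6, Plet1 and Lgr5. The other two, Lrig1 and Cd200, were lower in both. None of the 7 was called by limma on log2(signal + 1), by the same thresholds, while 1.57% of the 16231 genes tested were called higher and 7.78% lower. An unadjusted p under 0.05 was reached by 1 of the 7, Cd44, and by 5726 of all genes. Over all genes tested, 27.8% were higher without overlap and 44.5% lower, and the median log2 fold change was -0.64, so the majority of the markers stood on the less common side. In edgeR on estimated counts, obtained from the signal and chosen as a setting after the data were seen, 0 genes were called, with 5180 at an unadjusted p under 0.05, among them 3 of the 7. The sign of each of the 7 differences was the same in every setting tried.

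Ly6a, on chromosome 15 from 74994877 to 74998031, encodes Sca-1, the GPI-anchored protein by which EpdSCs were gated. Its normalized signal was 472 and 544 in WT EpdSCs and 826 and 3493 in KO-labelled EpdSCs. The WT libraries were close to each other, and the higher Ly6a level rested largely on KO-labelled replicate 2. On the log2 scale the difference was 1.74 (SE 0.88, adjusted p = 0.232 from limma), and it was 0.70 without KO-labelled replicate 2 and 2.78 without KO-labelled replicate 1. Ly6a lies in a cluster of similar Ly6 genes, so reads could have been shared among them in counting.

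Cd44 had a normalized signal of 2686 and 2314 in WT EpdSCs and 8784 and 9972 in KO-labelled EpdSCs. In this normalized signal, libraries of a genotype lay close together, 2500 ± 263 (SD, n = 2) against 9378 ± 840 (SD, n = 2). The fitted log2 difference was 1.91 (SE 0.47, the smallest SE of the 7, unadjusted p = 0.0169, adjusted p = 0.0859 from limma), and over settings other than left-out libraries the adjusted p ranged from 0.0453 to 0.196. The lowest of these, from limma with a trended prior that was chosen after the data were seen, passed the threshold. Without KO-labelled replicate 1 the log2 fold change of Cd44 was 2.00. Equal library totals gave 1.64 (SE 0.56), and equal totals without mitochondrial and ribosomal RNA genes gave 1.37 (SE 0.57). In these settings Lgr6 had smaller SEs, 0.49 and 0.44. The closeness of the KO-labelled libraries also depended on the scaling, since they were at 376 and 779 ppm on the common scale set out below.

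Lgr6 had a normalized signal of 1630 and 2282 in WT EpdSCs and 7239 and 3927 in KO-labelled EpdSCs. Its log2 fold change was 1.47 (SE 0.59, adjusted p = 0.169 from limma), and 1.03 without KO-labelled replicate 1. Plet1 had 265 and 358 in WT EpdSCs and 2449 and 675 in KO-labelled EpdSCs. In normalized signal both genes were highest in KO-labelled replicate 1, which for Plet1 held the larger share of the difference. For Lgr6 this depended on the scaling, since the KO-labelled libraries were level on the common scale set out below, at 310 and 307 ppm. The log2 fold change of Plet1 was 2.06 (SE 0.83, adjusted p = 0.171 from limma) with that library and 1.13 without it.

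Lrig1 went the other way, with a normalized signal of 1876 and 2319 in WT EpdSCs and 327 and 931 in KO-labelled EpdSCs. Both KO-labelled libraries were well below both WT libraries. On the log2 scale the difference was -1.92 (SE 0.72, adjusted p = 0.156 from limma), and -1.16 without KO-labelled replicate 1. Cd200 was scarce in EpdSCs, at 79.1 and 33.2 in WT and 2.55 and 21.6 in KO-labelled ones. These values correspond to 73 and 35 estimated counts in WT and 2 and 32 in KO-labelled libraries. Its log2 fold change of -2.55 (SE 1.16, adjusted p = 0.201 from limma) became -1.21 without KO-labelled replicate 1, the library with 2 counts.

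Lgr5 was near the limit of detection in EpdSCs, with a normalized signal of 0 and 7.59 in WT and 90.4 and 12.8 in KO-labelled libraries, or 0, 8, 71 and 19 estimated counts. These low values set the size of its log2 fold change, which was 3.60 (SE 1.57, adjusted p = 0.189 from limma) on the log2(signal + 1) scale. Left-out libraries moved it to 2.05 and 5.15 (WT replicates 1 and 2) and to 2.24 and 4.96 (KO-labelled replicates 1 and 2), and pseudocounts of 0.1 and 10 gave 5.28 and 1.85. An estimated count of 0 in a library of 15213662 allows a level of up to 3 counts there, for counting error alone.

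**Figure D2:**
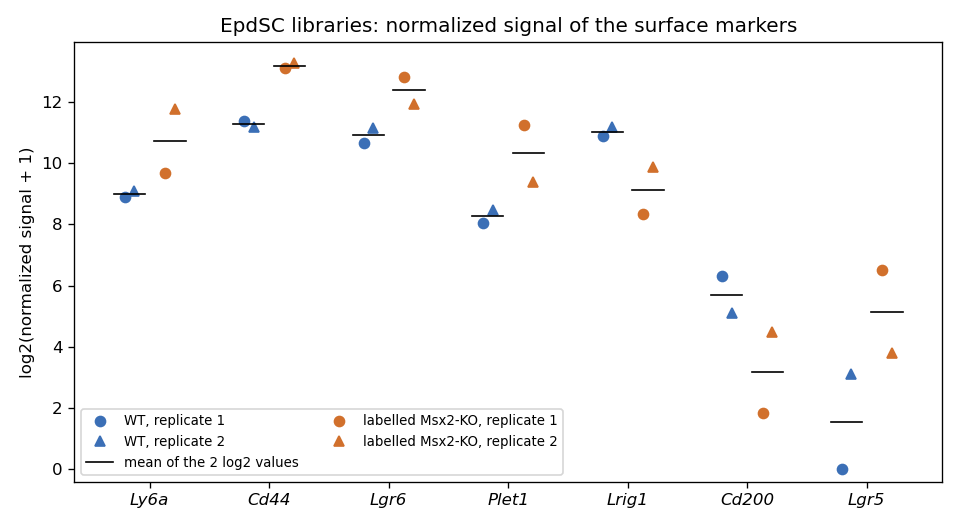
Log2 of the normalized signal plus 1 (y axis) of the 7 surface markers measured in EpdSCs, with 1 point per library and a black line at the mean of the 2 log2 values of a group. Ly6a, Cd44, Lgr6, Plet1 and Lgr5 lie higher in both KO-labelled libraries and Lrig1 and Cd200 lower, with the KO-labelled libraries far apart for Ly6a, Plet1, Lrig1, Cd200 and Lgr5.

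Per kilobase of exon, Ly6a led in WT EpdSCs with a normalized signal of 392 and 452, and its libraries overlapped with those of Lrig1 at 336 and 415, which in turn overlapped with Cd44 at 396 and 342. Lgr6 followed with 238 and 333 per kilobase and Plet1 with 136 and 184, while Cd200 and Lgr5 were far below, at means of 16.9 and 0.37. In the KO-labelled libraries the order was Ly6a, Cd44, Lgr6, Plet1 and Lrig1, with means of 1792, 1384, 814.9, 802 and 113 per kilobase. Lrig1, level with Ly6a and Cd44 in WT, came after these 4 and did not overlap with Plet1 above it. Lgr5 and Cd200, at means of 5.03 and 3.63 per kilobase, came last and overlapped each other.

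The profiles closest to Ly6a over the 4 EpdSC libraries, among 9993 genes with a mean of at least 100, were those of Xrcc2, Camk2n1 and Pknox1, at root mean square distances of 0.03, 0.09 and 0.11. Xrcc2, a gene of homologous recombination repair, had a normalized signal of 48.7 and 59.8 in WT and 86.6 and 377 in KO-labelled libraries. Like Ly6a, it was high chiefly in replicate 2.

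The promoters of the markers that were higher together in EpdSCs are shown because these genes share a direction there. RefSeq promoters of GRCm38.p6 were matched for 6 of the 8 genes, and among the genes higher in EpdSCs for Plet1, Lgr6 and Cd44. The 150 bases before the annotated start are given 5′ to 3′ on the strand of the gene, with TATAAA in capitals where it occurs.
Plet1, chr9:50494375-50494524, plus strand: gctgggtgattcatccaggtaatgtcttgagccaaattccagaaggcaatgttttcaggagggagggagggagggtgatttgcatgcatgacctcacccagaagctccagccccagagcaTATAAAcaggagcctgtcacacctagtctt
Lgr6, chr1:135105277-135105426, minus strand: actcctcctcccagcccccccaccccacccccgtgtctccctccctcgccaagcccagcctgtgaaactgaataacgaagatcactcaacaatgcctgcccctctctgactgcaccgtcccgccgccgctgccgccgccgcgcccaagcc
Cd44, chr2:102901666-102901815, minus strand: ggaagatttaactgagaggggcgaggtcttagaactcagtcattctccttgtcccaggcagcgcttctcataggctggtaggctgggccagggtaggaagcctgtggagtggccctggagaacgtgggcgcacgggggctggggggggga

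The 3 sequences have little in common in these letters. Plet1 holds TATAAA, which begins 30 bases before its start, and 1.87% of 32851 promoters hold it on the strand of the gene between 20 and 40 bases before the start. In the 250 bases before the start the share of G and C was 50.0% for Plet1, 65.2% for Lgr6 and 56.4% for Cd44, against a median of 52.4% over all promoters. CpG pairs in that window numbered 3, 16 and 5, against a median of 6. TAATTG, the core site of Msx homeodomains, searched on both strands (also as CAATTA), was in the windows of none of the 6 genes and of 7.17% of all promoters. The windows of Lrig1, which was lower in EpdSCs, and of Cd200 held 26 and 6 CpG pairs.

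The markers of other compartments were read in the same EpdSC libraries. The suprabasal list was lower, with 7 of 10 genes lower without overlap, a median log2 fold change of -2.80 and sums of 300698 and 217189 in WT against 107423 and 82158 in KO-labelled libraries. Of all genes tested, 44.5% were lower and 27.8% higher without overlap, and limma called 7.78% lower and 1.57% higher. Limma called 3 of the 10, all lower, namely Sbsn (log2 fold change -3.41, adjusted p = 0.0388), Ivl (-5.71, adjusted p = 0.0368) and Dsc1 (-5.29, adjusted p = 0.0268), which encode suprabasin, involucrin and a desmosomal cadherin. Of the 7 basal epidermis genes, none was called, 3 were higher and 2 lower without overlap, and their sums were 286457 and 353859 against 635916 and 505379. Krt14 made up most of the rise of that sum. It had a normalized signal of 71869 and 84155 in WT and 392157 and 275191 in KO-labelled libraries, with a log2 fold change of 2.08 (adjusted p = 0.0832 from limma). The others differed in direction. Krt5 and Mt2 were higher, at log2 fold changes of 0.36 and 2.90, Dst and Thbs1 were lower, at -2.46 and -0.74, and Trp63 and Col17a1 overlapped between genotypes.

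Of 5 upper follicle genes, 3 were lower without overlap and 1 was higher, against 44.5% and 27.8% of all genes tested. Their sums were 5670 and 5756 in WT and 4444 and 1619 in KO-labelled libraries. Krt17, a keratin of that region, was lower as Lrig1 was, with 2990 and 2487 in WT and 77.7 and 463 in KO-labelled libraries (log2 fold change -3.84, adjusted p = 0.098 from limma). Krt79 overlapped between genotypes, with 1954 and 2646 against 4024 and 747. Gata6 was higher, with 68.2 and 180 against 279 and 310. Plet1 and Lgr6, markers of the neighbouring isthmus, stood higher in the KO-labelled libraries. The sebaceous list had 3 genes measured, and its sum of 3639 and 4491 in WT and 23465 and 10018 in KO-labelled libraries was nearly all Scd1. Sums of the bulge list, 86921 and 105852 against 237281 and 185662, were mostly Krt15, with 79951 and 96241 in WT and 230109 and 177798 in KO-labelled libraries. Immune markers summed to 942 and 133 in WT and 33.0 and 15.6 in KO-labelled libraries, with Ptprc above 0 only in WT replicate 1. Of 4 hair germ genes, 3 were higher and 1 lower without overlap, with sums of 1641 and 2321 against 3624 and 3032. The fibroblast list was represented by Thy1 alone and the endothelial list by 3 genes that summed to 20.9 to 48.4, and the melanocyte list was not analysed here in EpdSCs. The part of these lists in the levels of the surface markers was not tested.

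**Figure D3:**
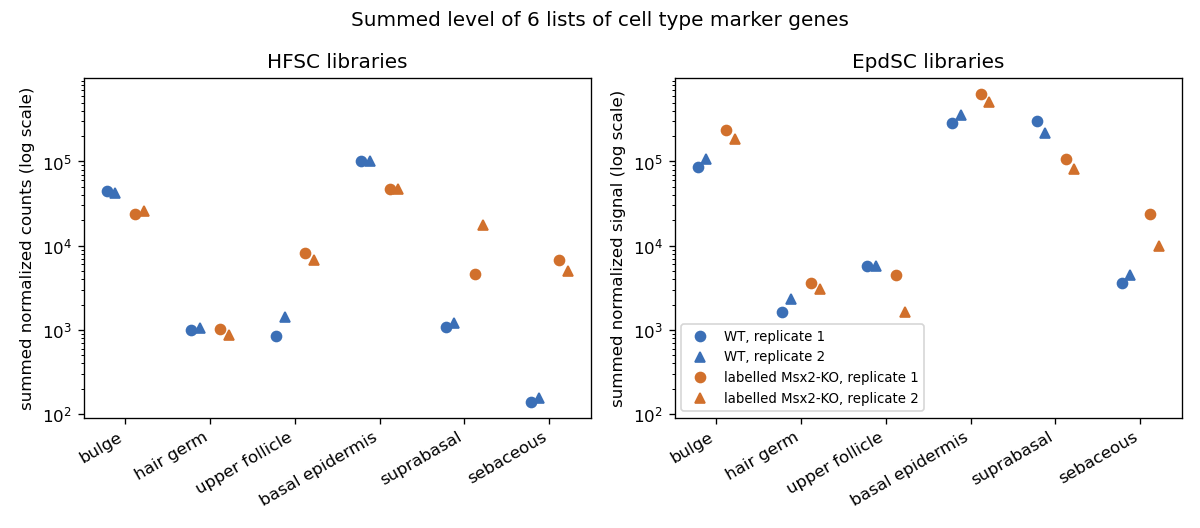
Summed normalized counts in HFSC libraries (left) and summed normalized signal in EpdSC libraries (right), both on log axes, for 6 lists of marker genes, with 1 point per library. In HFSCs the upper follicle, suprabasal and sebaceous sums are higher and the bulge and basal epidermis sums lower in both KO-labelled libraries, and in EpdSCs the suprabasal sum is lower, 107423 and 82158 against 300698 and 217189.

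The partners of the markers were read next, by role. Beside the calls by limma on these lists in EpdSCs, the shares over all genes tested were 7.78% lower and 1.57% higher. Among 10 genes of the R-spondin and LGR pathway, none of the 6 tested in HFSCs was called by edgeR. Lgr4, the broadly expressed paralog of Lgr5 and Lgr6, had 532 and 930 normalized counts in WT HFSCs and 1033 and 1086 in KO-labelled ones. In EpdSCs 1 of 7 was called by limma, Lrp5, the Wnt co-receptor gene, which fell from 1969 and 2353 to 48.4 and 76.8 (log2 fold change -5.12, adjusted p = 0.0268). Its partner Lrp6 had a log2 fold change of -1.56 (adjusted p = 0.193 from limma). The Wnt target Axin2 had -2.12 (adjusted p = 0.13 from limma), with a signal of 2908 and 3241 in WT against 427 and 1173, and neither was called. Znrf3 was higher, with 986 and 1010 against 1729 and 1135 (log2 fold change 0.49, adjusted p = 0.507 from limma). Of the 7 genes, 4 were lower and 2 higher without overlap, against 44.5% and 27.8% of all genes tested. Lgr4 in EpdSCs, with 486 and 582 against 4086 and 778, was highest in KO-labelled replicate 1, as were Lgr5 and, in normalized signal but not on the common scale, Lgr6.

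Around Lrig1, none of the 8 genes of the LRIG and EGF receptor list tested in HFSCs was called by edgeR. Lrig3, a paralog, had 967 and 1178 normalized counts in WT HFSCs and 475 and 466 in KO-labelled ones, the opposite direction to Lrig1 there, with a log2 fold change of -1.19 (adjusted p = 0.143 from edgeR's test). It was called in limma-trend (adjusted p = 0.0468) and not in DESeq2 (adjusted p = 0.0648). Egfr itself had a log2 fold change of -0.38. In EpdSCs, Lrig3 was lower as Lrig1 was, at 1585 and 1861 against 246 and 1132 (log2 fold change -1.70, adjusted p = 0.253 from limma). Of 10 genes tested there 1 was called, Btc, the ligand betacellulin, which was at 15.2 and 15.2 in WT and at 0 and 0.674 in KO-labelled libraries (log2 fold change -3.64, adjusted p = 0.0398 from limma), 1 estimated count or less in each of the latter. The receptor gene Erbb3 had 3121 and 3364 against 22505 and 16774 (log2 fold change 2.58, adjusted p = 0.0586 from limma), and Erbb2 and Egfr overlapped between genotypes.

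In the Ly6 family of Ly6a, Ly6d had the highest mean over the 4 libraries in both cell types, in HFSCs through the KO-labelled libraries alone. Its normalized signal in EpdSCs was 4483 and 3154 in WT and 412209 and 60944 in KO-labelled libraries, so that replicate 1 was far above replicate 2 (log2 fold change 5.40, adjusted p = 0.0664 from limma). In HFSCs it had 13.4 and 5.39 normalized counts against 291 and 499 (log2 fold change 5.30, adjusted p = 0.143 from edgeR's test), with adjusted p of 4.0e-08 in DESeq2 and 0.0327 in limma-trend. Ly6c1, a close neighbour of Ly6a on chromosome 15, had 50.9 and 93.9 in WT EpdSCs and 1944 and 435 in KO-labelled ones, highest in replicate 1 where Ly6a was highest in replicate 2. Limma called 1 of the 8 family genes tested, Ly6g6c, which fell from 2835 and 1751 to 140 and 167 (log2 fold change -3.86, adjusted p = 0.0361). In HFSCs, 0 of 5 were called by edgeR and 4 were higher without overlap, against 17.5% of all genes tested.

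For Cd44, the list of hyaluronan enzymes, CD44 ligands and the linker proteins of the cytoskeleton gave 0 calls of 10 in each cell type, by edgeR and by limma. In EpdSCs, Has3, a hyaluronan synthase gene, had 182 and 138 in WT and 1240 and 262 in KO-labelled libraries, and the hyaluronidase gene Hyal1 had 710 and 640 against 0 and 146. The linkers differed among themselves. Ezr, for ezrin, had 7314 and 6020 against 2506 and 2129 (log2 fold change -1.52, adjusted p = 0.12 from limma), whereas Rdx, for radixin, had 2411 and 2656 against 15323 and 3038, a difference carried by replicate 1. In HFSCs Ezr was higher, with 423 and 664 normalized counts against 825 and 1049, and Msn, for moesin, lower, with 1170 and 1093 against 434 and 850.

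Of 7 genes listed as partners of CD34 and CD200, only Podxl2, a relative of Cd34, was tested in HFSCs, with 54.9 and 55.6 normalized counts in WT and 93.3 and 136 in KO-labelled libraries, the direction opposite to Cd34. In EpdSCs, Podxl2 had 45.2 and 43.1 against 0 and 4.04.

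Among 16 other surface genes of keratinocytes, 0 were called by edgeR in HFSCs, where 9 were lower and 3 higher without overlap and the median log2 fold change was -0.59. Over all genes tested there, 33.5% were lower and 17.5% higher without overlap. Itgb4, the integrin partner of the gated CD49f, had 3071 and 3244 normalized counts in WT and 1250 and 1348 in KO-labelled libraries (log2 fold change -1.28, adjusted p = 0.143 from edgeR's test), and was called by DESeq2 (adjusted p = 0.00332) and limma-trend (adjusted p = 0.0351), as Cd34 was. In EpdSCs 9 of the 16 were higher and 3 lower without overlap, against 27.8% and 44.5% of all genes tested, with a median of 0.47. Limma called 1, Sdc1, the syndecan gene, which rose from 8054 and 7906 to 272559 and 116512 (log2 fold change 4.48, adjusted p = 0.0387). Itgb4 in EpdSCs had 7432 and 11067 against 183 and 1148 (log2 fold change -4.30, adjusted p = 0.0882 from limma). All 7 calls of limma named above, Sbsn, Ivl, Dsc1, Lrp5, Btc, Ly6g6c and Sdc1, were lost in edgeR on estimated counts and when either WT library was left out, since 0 genes were called in each of these fits. Without KO-labelled replicate 1 the log2 fold changes of these 7 genes ran from -5.15 for Dsc1 to 3.87 for Sdc1 in limma. In that fit 98 of the 105 list genes tested in EpdSCs had the same sign as with the library. Erbb3, Ly6d, Krt14, Krt17 and Itgb4 had log2 fold changes of 2.37, 4.02, 1.82, -2.55 and -2.98 in it, and Lrig3 was at -0.60 and Lgr4 at 0.55.

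Levels in HFSCs and EpdSCs were set side by side on a common scale (ppm), on which each library sums to 1000000 over the 15321 genes measured in both, without mitochondrial and ribosomal RNA genes. The tables were normalized separately, so these values are a description without a test. Lgr5 and Cd200 were the markers that set HFSCs apart. Lgr5 had 226 and 339 ppm in WT HFSCs and 170 and 203 in KO-labelled ones, against 0 and 0.64 in WT EpdSCs and 3.87 and 1.00 in KO-labelled ones. Cd200 had 129 and 91.2 in WT HFSCs and 154 and 223 in KO-labelled HFSCs, against 6.58 and 2.80 in WT EpdSCs and 0.109 and 1.68 in KO-labelled EpdSCs. For both genes every HFSC library was far above every EpdSC library.

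The other 4 markers were nearer to each other between cell types. Cd44 had 329 and 329 ppm in WT HFSCs, above 224 and 195 in WT EpdSCs, but 321 and 375 in KO-labelled HFSCs, below 376 and 779 in KO-labelled EpdSCs, where the first of these is level with the HFSC value beside it. Lrig1 had 139 and 105 in WT HFSCs and 156 and 196 in WT EpdSCs, and 162 and 357 against 14.0 and 72.7 in KO-labelled libraries. The order of the cell types thus differed between the genotypes for Cd44 and Lrig1, by their means, in the scale used here and with the other two denominators tried. Plet1 was higher in EpdSCs in both genotypes, with 22.1 and 30.2 against 19.3 and 11.2 in WT and 105 and 52.7 against 33.8 and 5.53 in KO-labelled libraries.

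Lgr6 had 268 and 237 in WT HFSCs and 136 and 192 in WT EpdSCs, and 376 and 389 against 310 and 307 in KO-labelled libraries. The order of Lgr6 in KO-labelled libraries turned with both other denominators. With mitochondrial and ribosomal RNA genes counted, the WT libraries of the 2 cell types overlapped for Lgr6, Lrig1 and Plet1.

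**Figure D4:**
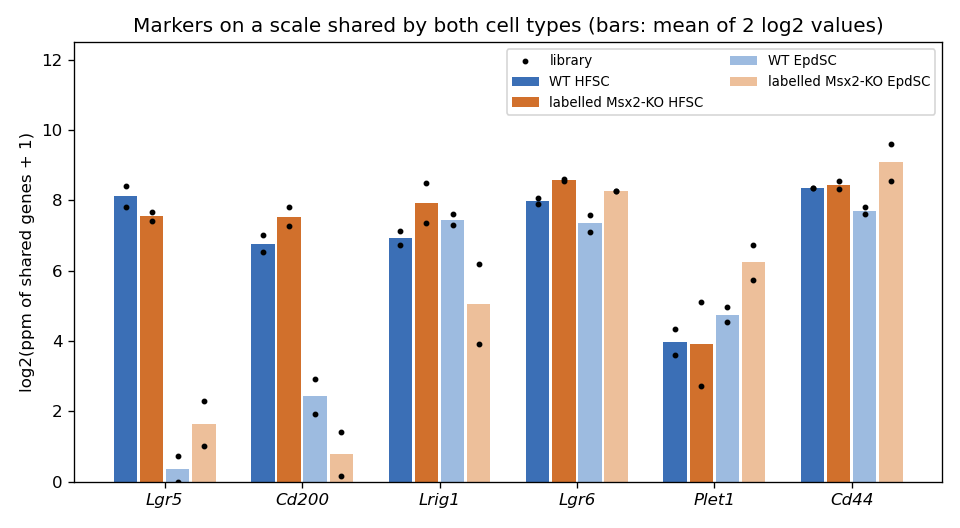
Log2 of the level in ppm of the genes measured in both cell types, plus 1 (y axis), for the 6 markers measured in both, with bars at the mean of 2 log2 values and dots for libraries. Lgr5 and Cd200 are far higher in HFSCs of both genotypes, while Lrig1 is lowest in KO-labelled EpdSCs, at 14.0 and 72.7 ppm.

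Set side by side, the log2 fold changes of the 2 cell types had opposite signs for Lgr5, Lrig1 and Cd200 and the same sign for Lgr6, Plet1 and Cd44 by the scaling used here, with Lgr6, Cd200, Plet1 and Cd44 in HFSCs changing sign under library totals. In HFSCs they ran from -1.53 for Cd34 to 1.08 for Lrig1, and in EpdSCs from -2.55 for Cd200 to 3.60 for Lgr5. WT HFSC mice were 2 months old and WT EpdSC mice 6 months, so that the contrasts also differ in age.

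**Figure D5:**
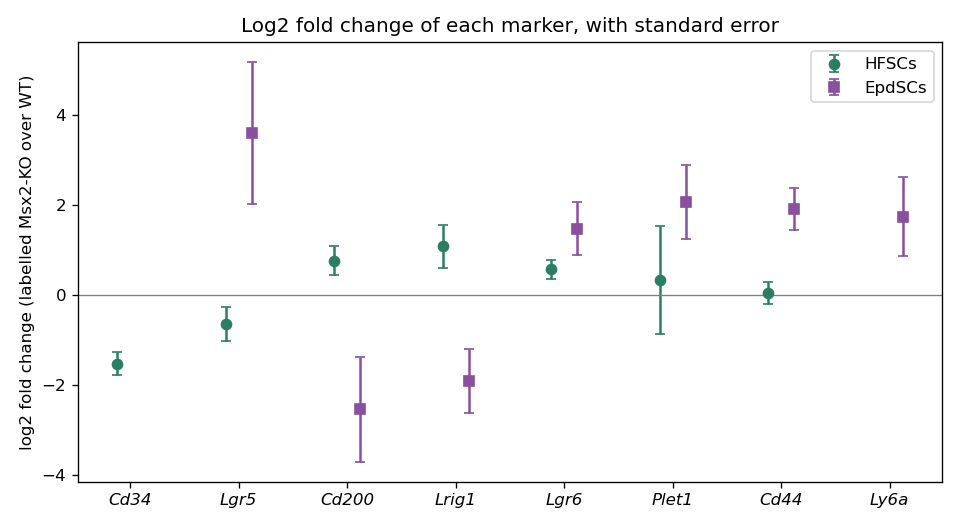
Log2 fold change, KO-labelled libraries over WT (y axis), of each marker in HFSCs (circles, edgeR) and EpdSCs (squares, limma), with bars of 1 standard error. For edgeR the standard error was derived from the test's F statistic. By the scaling used here, Cd34 in HFSCs, at -1.53, and Cd44 in EpdSCs, at 1.91, have small errors for their size. Lgr5, Cd200 and Lrig1 lie on opposite sides of 0 in the 2 cell types.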

How the data were processed

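The authors made stranded total RNA libraries and aligned reads with STAR 2.7.3a in Partek Flow to GRCm38/mm10 with GENCODE genes. For HFSCs they deposited estimated counts, which were rounded and scaled by TMM to 5563025 counts per library, and 14422 genes entered the quasi-likelihood test of edgeR 4.0.16. For EpdSCs the authors deposited a normalized signal, tested with limma 3.58.1 on log2(signal + 1) over 16231 genes. Signal divided by the value of a single count in each library (0.674 to 1.27) gave 15213662 to 21092705 estimated counts per library, and 73.4% to 83.0% of the values under 1000 counts were whole within 0.02. Intervals and limits cover counting error only. The authors' own comparisons of genotypes were not used. Positions and exon lengths came from GENCODE M21 (GRCm38). Columns not mapped to a library numbered 0.

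The genes named were the 8 markers, list genes called in either test, the 4 most abundant of each list and, for Cd34 and Ly6a, the 3 nearest profiles. Cidea, Tek and Esam were named after their values were seen. Markers and lists were chosen with earlier results of these data known. Fits were tested on simulated data. The spread between libraries (dispersion) set there was below the 0.823 estimated in HFSCs, so it cannot show how the fits perform at that spread. Alternatives were DESeq2 1.42.0, limma-trend, other scalings, filters and pseudocounts (0.1 and 10), a replicate block and each library left out, and, chosen after the data were seen, edgeR on estimated EpdSC counts and a trended limma prior. R 4.3.3 and Python 3.11.15 were used.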

Additional observations from a re-analysis of the deposited data

Results flagged for a closer look

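For 3 of the surface markers, every library labelled Msx2-KO lay on 1 side of WT in HFSCs and on the opposite side in EpdSCs. The log2 fold change of Lgr5 was -0.65 in HFSCs and 3.60 in EpdSCs, that of Lrig1 was 1.08 and -1.92, and that of Cd200 was 0.76 and -2.55. By library totals the HFSC values were -1.41 for Lgr5, 0.14 for Lrig1 and -0.16 for Cd200, so that the opposite signs held for Lgr5 and Lrig1 and not for Cd200. The difference between the cell types was not tested, because the tables were normalized separately. The EpdSC values of Lgr5 and Cd200 rest on 71 or fewer and 73 or fewer estimated counts in a library, and the WT mice differ in age between the cell types.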

How the results depend on the processing

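Signs of the EpdSC markers did not turn in any setting. In HFSCs, library totals gave Lgr6 -0.29, Cd200 -0.16, Plet1 -0.50 and Cd44 -0.79, limma-trend gave Plet1 -0.10, and without 1 library Plet1 ranged from -1.47 to 1.06 (-0.03 without WT replicate 2, -1.47 without KO-labelled replicate 1) and Cd44 from -0.12 to 0.16 (-0.08 without WT replicate 1, -0.12 without KO-labelled replicate 2). Genes called in HFSCs, 0 by edgeR, numbered 690 with DESeq2, 1407 with limma-trend, 51 with library totals, 2 with at least 10 counts in every library, and 132 to 9272 without 1 library (154 and 132 without WT replicates 1 and 2, 5967 and 9272 without KO-labelled replicates 1 and 2). Markers called there were 1 with DESeq2 and with limma-trend and 0 to 3 without 1 library, namely Cd34, Lrig1 and Cd200 without KO-labelled replicate 1 and Cd34 without replicate 2.

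In EpdSCs, where limma called 1518 genes, edgeR on estimated counts called 0, and 0 to 10376 were called without 1 library (0 without either WT library, 6099 and 10376 without KO-labelled replicates 1 and 2). Markers called were 1, Cd44, with a trended prior and 0 to 5 without 1 library, Ly6a and Cd44 without KO-labelled replicate 1 and Lgr6, Lrig1, Cd200, Plet1 and Cd44 without replicate 2. A lone library is assumed in these fits to vary like the other group. The cause of these shifts was not tested.

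With a replicate block, 231 HFSC genes and 1271 EpdSC genes were called and 0 markers in either, and Plet1 in HFSCs was -0.12. Deviations of same-numbered libraries were correlated across genes at -0.0555 in HFSCs and -0.0225 in EpdSCs. From 2 libraries per group, such a value cannot show whether same-numbered libraries were handled together.

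On the common scale, log2 HFSC minus EpdSC, on values in ppm plus 1, turned for Lgr6 in KO-labelled libraries from 0.31 to -0.91 with mitochondrial and ribosomal RNA genes included and -0.46 with TMM. With these genes included and with TMM, respectively, Lgr5 went from 5.90 to 4.65 and 5.07 in KO-labelled libraries, Cd200 from 6.75 to 5.48 and 6.04, and Cd44 from -0.64 to -1.86 and -1.41, and in WT Cd44 went from 0.65 to 0.55 and 0.42 and Lgr5, with TMM, from 7.76 to 7.03. With 2 libraries per group, no difference of a single gene could be shown at the threshold by a permutation test.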
